A study of Homo sapiens with 6 samples.

Results

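The S100 genes described here encode small calcium-binding proteins, and their RNA was measured in HCT116 cells with and without 5aza. The 10 genes were taken by name: S100A2, S100A3, S100A4, S100A6, S100A8, S100A9, S100A10, S100A11 and S100A14 of chromosome 1q21, and S100P of chromosome 4. Values were available for 8 of the 10, among 16715 identifiers in the table; S100A8 and S100A9 were not analysed here. All 8 had values high enough to be among the 12360 genes tested, those of at least 0.5 FPKM in at least 3 libraries. HCT116 is an established human colorectal carcinoma line. The 3 control libraries and 3 5aza libraries came from the same line, and the labels' protocols give 5 µM 5aza for 48 hours and then fresh medium for 48 hours. As background, 5aza names a cytidine analogue that traps DNA methyltransferases, and methylation is then lost as cells divide. The columns carry the code DAC where the titles have 5aza; the sources used here give neither the compound's full name nor any vehicle of the control cells. The series title links DNA methylation to alternative transcripts.

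S100 proteins carry a pair of EF-hands, loops that hold calcium, and most form dimers. Calcium opens a surface that binds a target protein, such as an annexin, a myosin heavy chain or a co-chaperone, and several members also act outside the cell on receptors such as RAGE. Most human S100 genes lie in a cluster on chromosome 1q21 that is interrupted by genes of the cornified skin layer, and their expression differs widely between epithelia and tumours.

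Summed FPKM per library lay between 577735 and 628399, and all 5aza totals were below all control totals. The values as deposited keep this offset. The median log2 fold change over the genes tested was -0.01 as deposited and 0.07 with each library rescaled to a common sum. Across genes, log2 values correlated at Pearson's r of 0.992 to 0.993 within groups and 0.976 to 0.977 between them. Genes are not independent replicates, so these values only describe the libraries. Of the 10 colorectal epithelial markers with values, 3 were under 1 FPKM in every library. Others were high. KRT8 had a mean of 984 FPKM in control and 1151 in 5aza libraries, and KRT18 of 520.1 and 622. KRT19 had means of 740.2 and 936 FPKM, and EPCAM of 166 and 153. These 4 genes made up nearly all of the epithelial list's summed FPKM. KRT20, CDH1, VIL1, CDX1, CDX2, LGALS4 and CEACAM5, looked up as well, added little. The epithelial list summed to 2347 to 2501 FPKM in control and 2849 to 2921 FPKM in 5aza libraries. Of its 7 tested genes, 5 rose and 1, EPCAM, fell, with a median log2 fold change of 0.26. The EPCAM call was lost under 3 other scalings (adjusted p = 0.343 to 0.832) and with no variance trend (0.0767). It was also lost without control replicate 1 (0.0693) or 2 (0.0556) or 5aza replicate 2 (0.0757) or 3 (0.0781). Of the 10 neutrophil and monocyte markers with values, 9 were under 1 FPKM in every library, and CSF3R, MPO and SPI1 were under 0.1 FPKM; the exception, CD68, is given with the receptors. Their summed level was 3.51 to 4.58 FPKM in control and 5.90 to 7.01 FPKM in 5aza libraries. Among fibroblast markers, 5 of 6 were under 1 FPKM throughout; COL1A1 had means of 4.67 and 6.71 FPKM, and the list summed to 4.57 to 4.95 and 6.71 to 7.71 FPKM. Among keratinocyte markers, 4 of 5 were under 1 FPKM throughout, and the list, nearly all of it KRT10, summed to 32.5 to 38.5 and 30.8 to 32.6 FPKM. The part of these differences between the groups, the rise of the epithelial list included, in the S100 values was not tested. In bulk RNA, more cells expressing a gene and more RNA per cell cannot be told apart.

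After 5aza, 5 of the 8 S100 genes rose, 0 fell and 3 did not pass the test. The rises were of S100A2 (73.2%), S100A3 (47.5%), S100A11 (34.2%), S100A6 (15.8%) and S100A14 (13.1%), as changes of the mean FPKM. S100A4, S100A10 and S100P did not pass. Over all 12360 genes, 10.6% rose and 13.1% fell, and the median log2 fold change was -0.01 against 0.19 over the 8 S100 genes and 0.26 over the epithelial markers. The 5aza values lay above all control values in 6 of the 8, as they did in 19.6% of all genes tested; groups without overlap in either direction made up 42.2%. The background depends on scaling. Rises were 44.7% of all calls as deposited (1310 rises and 1619 falls), 75.1% (2340 and 776) with each library rescaled to a common sum, 55.5% (1466 and 1175) after removing the dependence of fold change on expression, here called the expression trend, and 54.9% (1780 and 1461) with no filter. S100A2, S100A6, S100A11 and S100A14 rose in the fit under each of 15 alternatives. S100A3 rose under 14 of them, and 0 of the 8 genes fell under any.

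**Figure D1:**
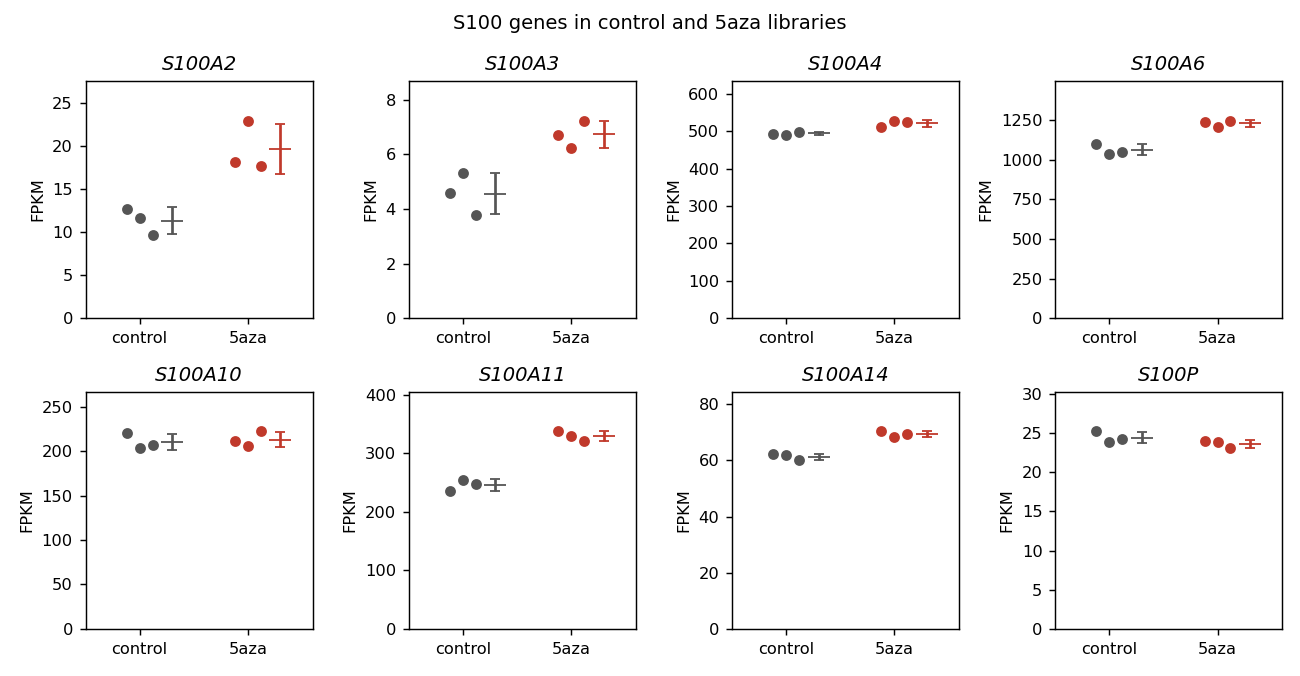
FPKM of the 8 S100 genes in each control (grey) and 5aza (red) library, with the mean and SD of 3 libraries beside the points and each axis starting at 0. The groups are apart in 6 panels and overlap for S100A10 and S100P.

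FPKM is scaled to transcript length, so the levels of the S100 genes are set side by side here as a rough order. The program behind the values is not given, and differences between genes in how reads are counted were not tested. In control libraries S100A6 was highest, with a mean of 1062 FPKM, then S100A4 with 494, S100A11 with 246, S100A10 with 210.1, S100A14 with 61.4, S100P with 24.4, S100A2 with 11.3 and S100A3 with 4.56 FPKM. No neighbours in this order had overlapping values within control libraries, and in 5aza libraries S100P and S100A2 came close, at 23.1 to 24.0 and 17.7 to 23.0 FPKM. S100A6 exceeded 99.4% of all identifiers in control libraries and S100A3 46.3%.

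The sequences upstream of 4 of these genes are shown because DNA methylation in human cells sits mainly at CpG, and the genes differ in how many CpG they hold there. The lines give the part of the 250 bases before the RefSeq start that lies in no annotated exon, 5′ to 3′ on the gene's strand, with each CpG in capitals. All 4 genes are on the minus strand of chromosome 1. The stretches are chr1:153565866-153566094 for S100A2, chr1:153549373-153549508 for S100A3, chr1:152037036-152037254 for S100A11 and chr1:153545886-153546056 for S100A4.
S100A2: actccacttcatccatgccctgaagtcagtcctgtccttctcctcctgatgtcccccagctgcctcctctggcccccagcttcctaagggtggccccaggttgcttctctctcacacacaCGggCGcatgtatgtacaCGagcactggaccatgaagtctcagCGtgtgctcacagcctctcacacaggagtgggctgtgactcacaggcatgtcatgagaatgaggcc
S100A3: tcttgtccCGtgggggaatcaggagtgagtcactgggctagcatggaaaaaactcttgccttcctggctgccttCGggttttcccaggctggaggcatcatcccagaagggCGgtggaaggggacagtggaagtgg
S100A11: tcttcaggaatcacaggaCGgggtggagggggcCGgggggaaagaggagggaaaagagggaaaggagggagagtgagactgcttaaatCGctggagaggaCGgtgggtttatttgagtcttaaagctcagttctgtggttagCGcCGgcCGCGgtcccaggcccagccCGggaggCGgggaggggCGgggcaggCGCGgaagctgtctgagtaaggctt
S100A4: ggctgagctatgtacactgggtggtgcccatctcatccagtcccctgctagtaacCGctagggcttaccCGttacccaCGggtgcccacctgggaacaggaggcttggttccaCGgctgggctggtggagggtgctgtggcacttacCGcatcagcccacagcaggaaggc

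The stretch of S100A11 holds 13 CpG, that of S100A4 holds 5, that of S100A2 holds 4 and that of S100A3 holds 3. Counted over the whole 250 bases, S100A6 and S100A10 hold 24 CpG each, S100A11 15, S100A4 7, and S100A2 (at the start shown), S100A3, S100A14 and S100P 4 each. The windows of S100A6, S100A10 and S100P lie wholly in annotated exons of these genes, so their counts and letters are exonic. Over 35116 RefSeq windows of the same length the median was 11 and the quartiles were 3 and 23. At these starts, the counts ran from 4 to 24 in the 5 genes that rose and from 4 to 24 in the 3 that did not pass. A relation of CpG number to the changes was not tested. Methylation of these CpG was not measured in the files. On either strand, the letters TGANTCA, a pattern bound by AP-1 factors, occur in the windows of S100A2 (at the start shown) and S100A3 and in 6.57% of all windows. The window of the other RefSeq start of S100A2 lies wholly in annotated exons of the gene and holds 3 CpG and no such match. The match lies 52 bases before the start of S100A2 and 225 before that of S100A3. GGGCGG occurs in the windows of S100A3, S100A6, S100A10 and S100A11 and in 42.6% of all windows, and TATAAA in those of S100A4 and S100P and in 10.7%. These are matches of letters, not measured binding.

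S100A2 (ENSG00000196754, chromosome 1, 153561108 to 153567890) encodes a mainly nuclear, epithelial S100 protein that binds p53. Its values were 12.7, 11.6 and 9.66 FPKM in control replicates 1 to 3, and 18.2, 23.0 and 17.7 FPKM in 5aza replicates 1 to 3. All 5aza values were above all control values, and 5aza replicate 2 was the highest. The mean rose from 11.3 ± 1.56 to 19.6 ± 2.91 FPKM (SD, n = 3), the largest change among the 8 genes, with a log2 fold change of 0.79 (SE 0.13, adjusted p = 0.00461). Under the alternatives the log2 fold change lay between 0.67 and 0.87.

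S100A3 (ENSG00000188015, chromosome 1, 153547329 to 153549372) encodes a cysteine-rich protein best known from the hair cuticle. It was measured at 4.59, 5.31 and 3.79 FPKM in control libraries and at 6.71, 6.25 and 7.24 FPKM in 5aza libraries. The groups did not overlap, although 5aza replicate 2 was within 1 FPKM of control replicate 2. The mean rose from 4.56 ± 0.763 to 6.73 ± 0.495 FPKM (SD, n = 3; log2 fold change 0.56, SE 0.12, adjusted p = 0.0164). Without 5aza replicate 3 the log2 fold change was 0.51 and the call was lost (adjusted p = 0.0612). The gene's span lies inside that of S100A4, which was measured at a far higher level. No exonic base is shared (0 bases), and the part of S100A4 reads in the S100A3 values was not tested.

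S100A4 (ENSG00000196154, chromosome 1, 153543613 to 153550136) encodes metastasin, which binds non-muscle myosin heavy chain and is known for its link to metastasis. Its values were 494, 490.4 and 499 FPKM in control and 511, 529 and 525 FPKM in 5aza libraries. All 5aza values were above all control values, but the step was small. The means were 494 ± 4.23 and 522 ± 9.39 FPKM (SD, n = 3), and the log2 fold change of 0.08 (interval 0.01 to 0.14) did not pass (adjusted p = 0.0807). It passed when each library was rescaled to a common sum (0.16, adjusted p = 0.0105), under quantile normalization (0.16, adjusted p = 0.0122) and with the expression trend removed (0.20, adjusted p = 0.00832), which makes 6 rises among the 8 genes under each of these scalings.

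S100A6 (ENSG00000197956, chromosome 1, 153534599 to 153536244) encodes calcyclin, a protein of proliferating cells that binds annexins and the calcyclin-binding protein CACYBP. It was measured at 1099, 1037 and 1050.3 FPKM in control libraries and at 1239, 1205 and 1246 FPKM in 5aza libraries. The 5aza libraries were all higher, and none came within 100 FPKM of the control values. The mean rose from 1062 ± 32.7 to 1229.8 ± 21.7 FPKM (SD, n = 3; log2 fold change 0.21, SE 0.03, adjusted p = 0.00464). In FPKM this was the largest step of the 8 genes. With the expression trend removed the log2 fold change was 0.35.

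S100A11 (ENSG00000163191, chromosome 1, 152032506 to 152047907) encodes calgizzarin, a partner of annexin A1. Its values were 235, 255 and 247 FPKM in control and 338, 331 and 321 FPKM in 5aza libraries. The lowest 5aza value was well above the highest control value. The mean rose from 246 ± 10.2 to 330.0 ± 8.22 FPKM (SD, n = 3), and the log2 fold change of 0.42 (SE 0.04) had the smallest adjusted p of the 8 genes, 4.08e-04. GENCODE 29 names 2 pseudogenes of S100A11, and reads may have been split between the copies. S100A10 (ENSG00000197747, chromosome 1, 151982915 to 151994390), its neighbour, encodes p11, a member that does not need calcium and forms a tetramer with annexin A2. It was measured at 220.1, 204 and 206 FPKM in control and 211, 205 and 222 FPKM in 5aza libraries, and the groups overlapped. The means were 210.1 ± 8.76 and 213 ± 8.65 FPKM (SD, n = 3), with a log2 fold change of 0.02 (interval -0.08 to 0.12, adjusted p = 0.781). The sign turned without control replicate 2 and without 5aza replicate 3. The difference between the changes of S100A10 and S100A11 was not tested.

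S100A14 (ENSG00000189334, chromosome 1, 153614255 to 153616986), an epithelial member, was measured at 62.2, 61.8 and 60.1 FPKM in control and 70.4, 68.3 and 69.5 FPKM in 5aza libraries. The groups were narrow and apart. The mean rose from 61.4 ± 1.1 to 69.4 ± 1.07 FPKM (SD, n = 3; log2 fold change 0.18, SE 0.03, adjusted p = 0.00610). S100P (ENSG00000163993, chromosome 4, 6693069 to 6697170) encodes a member first found in placenta that binds ezrin and acts on RAGE. It was measured at 25.2, 23.8 and 24.2 FPKM in control and 24.0, 23.8 and 23.1 FPKM in 5aza libraries, and the groups overlapped. The means were 24.4 ± 0.727 and 23.6 ± 0.498 FPKM (SD, n = 3), with a log2 fold change of -0.05 (interval -0.14 to 0.05, adjusted p = 0.439). The sign was positive, 0.03, when each library was rescaled to a common sum.

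**Figure D2:**
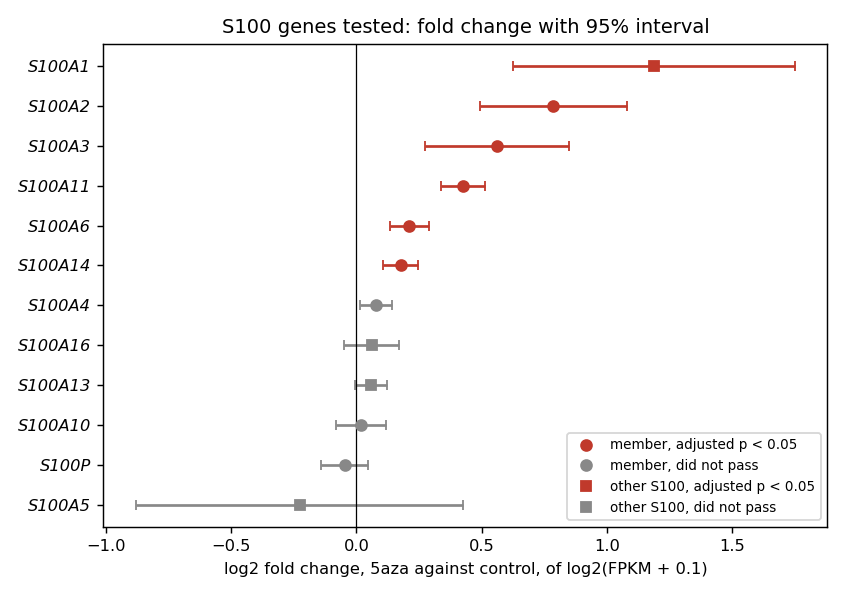
Log2 fold change (x axis, of log2(FPKM + 0.1), 5aza against control) with its 95% interval for the 12 S100 genes tested, circles for the 8 genes of the list and squares for the other S100 genes. Red marks an adjusted p under 0.05; S100A2 leads the list at 0.79, and S100P and S100A5 are below 0.

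The 8 genes together made up 2153, 2089 and 2100.4 FPKM in control and 2418, 2391 and 2432 FPKM in 5aza libraries. The mean sum was 2114 ± 34.1 in control and 2414 ± 21.1 FPKM in 5aza libraries (SD, n = 3), a difference of 299 FPKM (exact permutation test, two-sided, p = 0.1, the smallest p that 3 libraries against 3 allow). As a share of each library's summed FPKM, the mean was 0.342 ± 0.00858% in control and 0.413 ± 0.00712% in 5aza libraries. S100A6 made up between 49.6% and 51.2% of the sum in every library, so the sum mostly follows this gene.

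In the values as deposited, rises were rare among abundant genes. Of 926 genes with a mean of 100 FPKM or more, 5.62% rose and 40.5% fell. The S100 list has 4 genes in this class: S100A6 and S100A11 rose, S100A4 and S100A10 did not pass, and 0 fell. The shares over the 926 genes were not computed under the other scalings. Over all genes, falls numbered 1619 as deposited and 776 rescaled to a common sum.

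**Figure D3:**
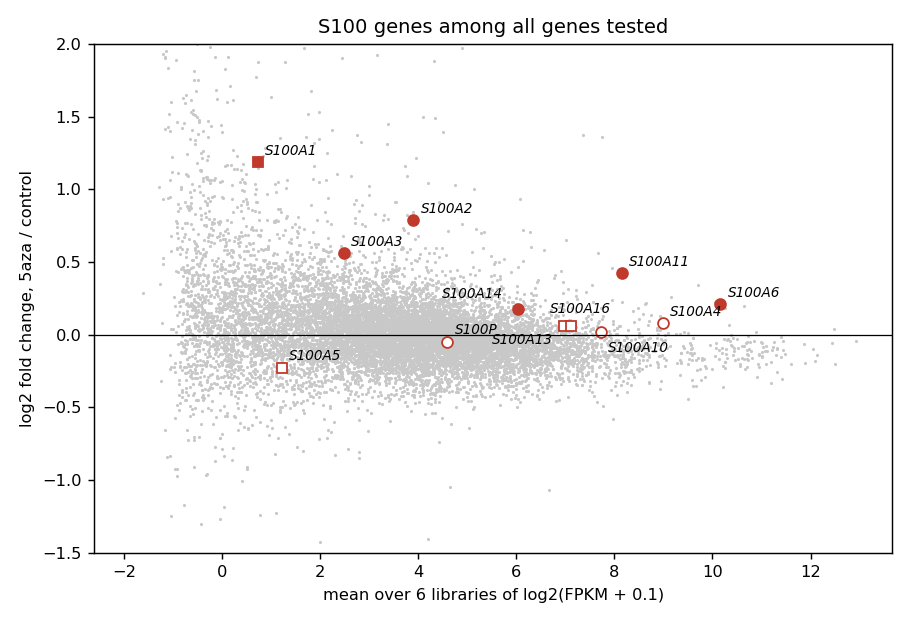
Log2 fold change (y axis) against the mean of log2(FPKM + 0.1) over 6 libraries (x axis) for all genes tested (grey) and the S100 genes (red; filled where the adjusted p was under 0.05, circles for the list and squares for other S100 genes). In the values as deposited, S100A6 and S100A11 lie above the bulk of abundant genes. The y axis runs from -1.5 to 2, and 154 genes fall outside it.

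Of 11 other S100 genes looked up, 7 had values and 4 of these passed the filter; S100A7A, S100A7L2, S100A12 and S100G were not analysed here. Of the 4 tested, 1 rose and 0 fell, beside 10.6% and 13.1% of all genes tested. S100A1 (chromosome 1, 153627926 to 153632039), the S100 gene best known from heart muscle, was measured at 0.784, 1.48 and 0.834 FPKM in control and 2.63, 2.64 and 1.97 FPKM in 5aza libraries. Its groups did not overlap, and the mean rose from 1.03 ± 0.388 to 2.41 ± 0.386 FPKM (SD, n = 3; log2 fold change 1.19, SE 0.24, adjusted p = 0.0120). With a pseudocount of 1 FPKM the log2 fold change was 0.76. S100A1 shares 235 exonic bases with S100A13 on the opposite strand, and without strand information the reads of the pair cannot be told apart there. S100A1 also shares 320 exonic bases with AL162258.2 on the opposite strand, and S100A13 shares 536 with AL162258.1 on its own strand. The part of their reads in the S100A1 and S100A13 values was not tested.

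S100A13, which takes part in the release of growth factors without a signal peptide, was measured at 119.9, 124 and 123 FPKM in control and 127.1, 127.4 and 127.7 FPKM in 5aza libraries (log2 fold change 0.06, adjusted p = 0.159). S100A16, a widely expressed member, had means of 137 ± 7.54 and 143 ± 5.42 FPKM (SD, n = 3; log2 fold change 0.06, adjusted p = 0.383). Both passed as higher when each library was rescaled to a common sum (adjusted p = 0.0145 for S100A13 and 0.0278 for S100A16) and with the expression trend removed (0.0137 and 0.0250), and S100A13 also under quantile normalization (0.0186). S100A5, with means of 2.46 ± 0.529 and 2.16 ± 0.795 FPKM (SD, n = 3), had a log2 fold change of -0.23 (adjusted p = 0.604), and the sign turned without 5aza replicate 3 (0.08). S100A7, psoriasin, was below the filter, at 0, 0.185 and 0.172 FPKM in control and 0.345, 0.358 and 0.495 FPKM in 5aza libraries. S100B, the glial member, and S100Z stayed at or under 0.271 FPKM in every library; S100Z was listed at 0 in the 3 control libraries. The 5aza values of S100A7, S100B and S100Z were above all control values, at levels too low for a firm statement. The share of all genes under the filter with such values was not computed.

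The genes around the S100 cluster were set beside it to show whether they moved with it. From S100A10 to S100A1 (chromosome 1, 151982915 to 153632039), 12 genes other than S100 genes had values, most of them genes of the cornified layer such as FLG, HRNR, TCHH and LCE1E, and 0 of the 12 passed the filter on low values. The 500 kb on each side held 19 genes that could be tested. Their median log2 fold change was -0.15, against -0.01 over all genes tested. Of the 19, 1 rose, 7 fell and 11 stayed short of the threshold, beside 10.6% rises and 13.1% falls over all genes tested. The rise was of SNX27, a sorting nexin, from 7.97 to 9.59 FPKM (log2 fold change 0.26, adjusted p = 0.0107). JTB fell from 97.5 to 81.7 FPKM (-0.26, adjusted p = 0.00960). MRPL9, a mitochondrial ribosomal protein, fell by 0.22 on the log2 scale (adjusted p = 0.0342) and SLC27A3, a fatty acid transport protein, by 0.19 (adjusted p = 0.0415).

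CHTOP, the tested gene next to S100A1 and chosen after its values were seen, fell from 86.8 to 77.3 FPKM (log2 fold change -0.17, adjusted p = 0.00848), a call lost when each library was rescaled to a common sum (adjusted p = 0.0704) and with the expression trend removed (0.0606). With each library rescaled to a common sum, 2 of the flanking genes rose and 1 fell, and with the expression trend removed 3 fell. The falls among flanking genes numbered 4 without control replicate 1, and 2 on leaving out control replicate 2, 5aza replicate 2 or 5aza replicate 3. MRPL9 no longer passed when control replicate 1 (adjusted p = 0.0999) or 2 (0.102) or 5aza replicate 2 (0.0686) or 3 (0.0874) was left out, and the SLC27A3 call was lost without any 1 of the 6 libraries (0.0567 to 0.113), rescaled to a common sum (0.250) and with no variance trend (0.0597). MRPL9 also fell short rescaled to a common sum (0.0691), with the expression trend removed (0.0540) and with no variance trend (0.0799). Within 500 kb of S100P, 10 genes were tested, and 0 rose and 0 fell, beside 10.6% and 13.1% of all genes tested. The nearest on either side, MRFAP1 (422 and 402 FPKM) and MRFAP1L1 (46.1 and 45.9 FPKM), had log2 fold changes of -0.07 and -0.01, and both signs turned under each of the 3 other scalings.

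**Figure D4:**
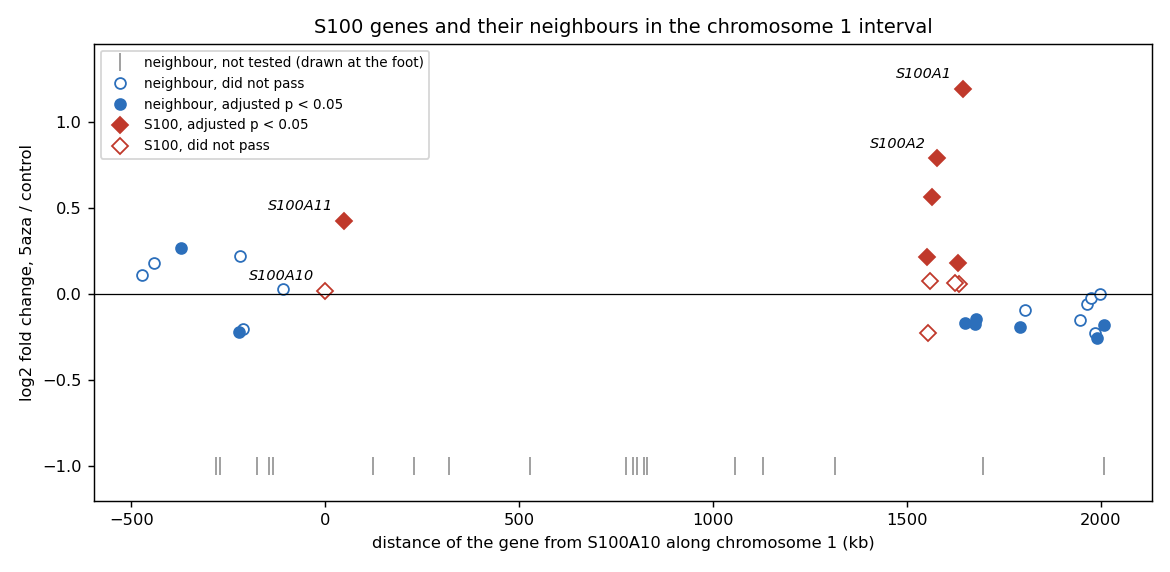
Log2 fold change (y axis) of S100 genes (red diamonds) and other genes (blue circles) by distance of the gene's start from that of S100A10 on chromosome 1 in kb (x axis); filled symbols passed at an adjusted p under 0.05. Grey ticks at the foot mark genes under the filter on low values, whose height has no meaning; they fill the space between S100A11 and S100A6.

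Genes of S100 binding partners did not move in 1 direction. Rises numbered 6 and falls 8 of 37 tested, 23 stayed short of the threshold, and the median log2 fold change was 0.00; over all genes tested 10.6% rose and 13.1% fell. ANXA2, annexin A2, the partner of S100A10, was measured at 1144, 1177 and 1108 FPKM in control and 1310.0, 1304 and 1273 FPKM in 5aza libraries. It rose with no overlap (log2 fold change 0.18, SE 0.03, adjusted p = 0.00822, and 0.32 with the expression trend removed), whereas S100A10 did not pass; the difference between the 2 changes was not tested. AHNAK, a giant scaffold protein that binds the S100A10 and annexin A2 complex, had means of 24.8 ± 2.74 and 31.0 ± 5.69 FPKM (SD, n = 3; log2 fold change 0.31, adjusted p = 0.122), and its relative AHNAK2 rose from 5.49 to 9.34 FPKM (0.76, adjusted p = 0.00209).

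ANXA1, the partner of S100A11, had means of 261 and 262 FPKM (log2 fold change 0.00, adjusted p = 0.969), with a sign that turned without control replicate 1, control replicate 3 or 5aza replicate 1. It passed as higher under the 3 other scalings (adjusted p = 0.0443 rescaled to a common sum, 0.0301 under quantile normalization and 0.0204 with the expression trend removed). ANXA11, a partner of S100A6, had means of 70.9 and 67.8 FPKM (-0.06, adjusted p = 0.172), and its sign turned under the same 3 scalings.

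CACYBP, which links S100A6 to ubiquitin ligases, fell while S100A6 rose. It was measured at 87.4, 80.6 and 84.0 FPKM in control and 68.9, 71.8 and 72.1 FPKM in 5aza libraries, with no overlap. Its log2 fold change was -0.24 (SE 0.04, adjusted p = 0.00462). FKBP4 and FKBP5, immunophilins that act as co-chaperones, fell from 127 to 106 and from 41.9 to 34.9 FPKM (both -0.27, adjusted p = 0.00170 and 0.00189). TUBB, a beta tubulin, fell from 880.2 to 689 FPKM (-0.35, adjusted p = 3.80e-04), by less under quantile normalization (-0.19) and with the expression trend removed (-0.22).

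MYH9, the non-muscle myosin that S100A4 binds, had means of 65.6 ± 2.72 and 72.3 ± 5.11 FPKM (SD, n = 3; log2 fold change 0.14, adjusted p = 0.117). It passed as higher under the 3 other scalings (adjusted p = 0.0302 rescaled to a common sum, 0.0406 under quantile normalization and 0.0391 with the expression trend removed) and without 5aza replicate 1 (0.0320). EZR, the S100P partner ezrin, had means of 611 and 615 FPKM (0.01, adjusted p = 0.883). It passed as higher rescaled to a common sum (adjusted p = 0.0241) and with the expression trend removed (0.00607), and its sign turned without control replicate 3. PLAU, a plasminogen activator on the pathway that S100A10 serves at the cell surface, rose from 15.7 to 21.3 FPKM (0.43, adjusted p = 0.00304). MDM2, the ubiquitin ligase of p53 that several S100 proteins bind, had the largest rise of the list, 1.00 on the log2 scale (adjusted p = 1.39e-05). Rises among partners numbered 14 when each library was rescaled to a common sum, 12 with the expression trend removed and 10 under quantile normalization.

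**Figure D5:**
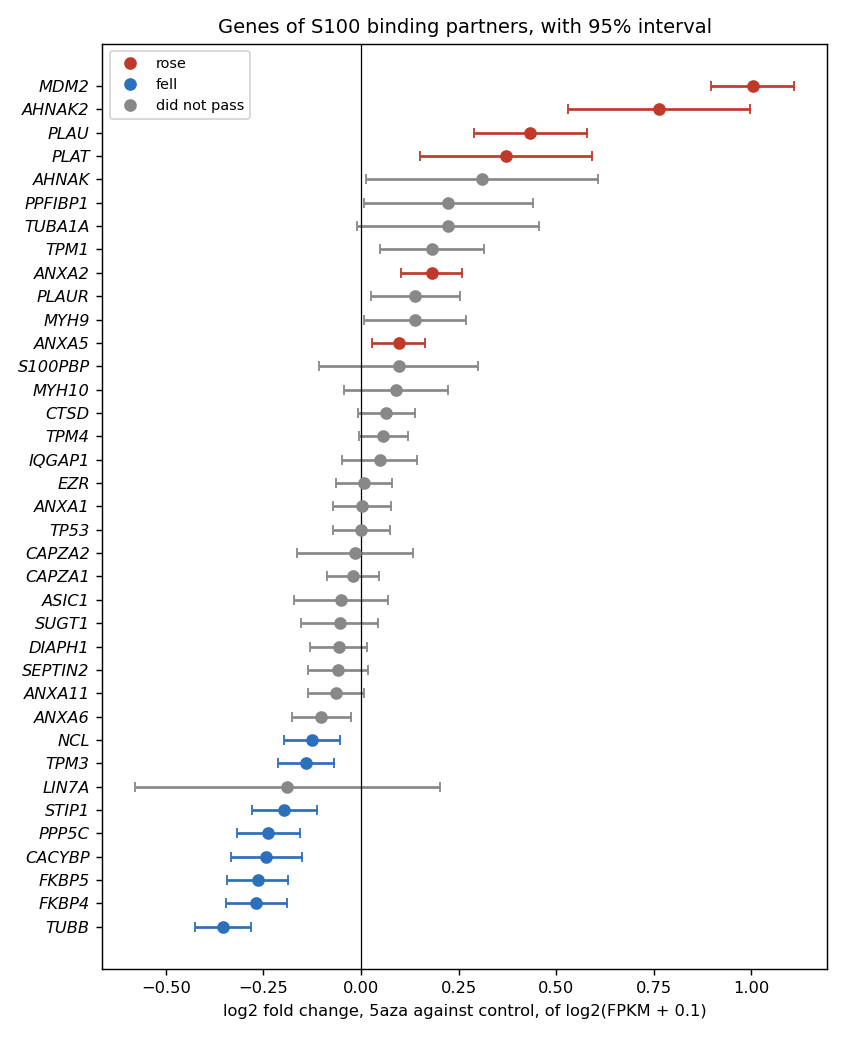
Log2 fold change (x axis, of log2(FPKM + 0.1), 5aza against control) with its 95% interval for the 37 tested genes of S100 binding partners; red rose, blue fell, grey did not pass. MDM2 and AHNAK2 are at the top, and TUBB, FKBP4, FKBP5 and CACYBP at the foot.

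Of the 12 receptor genes with a test, 4 rose and 1 fell, 7 stayed short of the threshold, and TLR4 was not analysed here. Over all genes tested 10.6% rose and 13.1% fell. AGER, which encodes the S100 receptor RAGE, was low, with means of 1.98 ± 0.303 and 1.92 ± 0.328 FPKM (SD, n = 3; log2 fold change -0.04, adjusted p = 0.879), and its sign turned rescaled to a common sum and without control replicate 3 or 5aza replicate 2. EGFR, the epidermal growth factor receptor, rose from 10.3 to 14.2 FPKM (0.46, adjusted p = 0.00471). CD68, a lysosomal scavenger protein, rose from 3.50 to 5.23 FPKM (0.58, adjusted p = 0.0144), a call lost without 5aza replicate 2 (adjusted p = 0.0509). CD33, a sialic acid binding lectin, rose from 0.968 to 1.87 FPKM (0.91, adjusted p = 0.0356), but this was lost without any library other than control replicate 2 (0.0641 to 0.115) and under 4 other alternatives. SCARB1, a lipoprotein receptor, fell by 0.19 on the log2 scale (adjusted p = 0.0268), a call lost under 3 other scalings (0.111 to 0.115), with no variance trend (0.0737) and on leaving out control replicate 1 (0.0546) or 2 (0.0812) or 5aza replicate 1 (0.0843) or 3 (0.0898). Without 5aza replicate 2, 2 receptors rose.

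Of the other genes of the EF-hand class, 7 of 44 rose and 5 fell, 32 stayed short of the threshold, and the median log2 fold change was -0.01. These counts are near those over all genes tested, of which 10.6% rose and 13.1% fell. SPARC, a matrix protein with an EF-hand domain, rose from 0.810 to 12.5 FPKM (3.88, adjusted p = 1.67e-04). RCN3, a calcium-binding protein of the endoplasmic reticulum, is among the 7 but passed the filter through its 5aza values alone: it was listed at 0 in 2 control libraries and at 0.0705 FPKM in the third, and at 1.35 to 1.93 FPKM in 5aza libraries. Its fitted log2 fold change is set by the pseudocount, from 1.32 with 1 FPKM to 6.28 with 0.01 FPKM. EFHD1, a mitochondrial EF-hand protein, rose from 0.874 to 1.78 FPKM (1.00, adjusted p = 0.0188, and 0.58 with a pseudocount of 1 FPKM), a call lost without 5aza replicate 1 (adjusted p = 0.0583), 2 (0.0551) or 3 (0.0659). CETN3, a centrin of the centrosome, fell by 0.39 on the log2 scale (adjusted p = 0.00161), RCN2 by 0.21 (0.00237, and by 0.13 rescaled to a common sum) and NUCB1, a Golgi calcium-binding protein, by 0.19 (0.00934), the last lost when rescaled to a common sum (0.0890). Rises in this list numbered 13 rescaled to a common sum and 11 under quantile normalization, and 3, 3 and 2 without 5aza replicates 1, 2 and 3; falls numbered 3 rescaled to a common sum, with no variance trend or without 5aza replicate 3.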

How the data were processed

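RNA-seq of 6 HCT116 libraries, 3 control and 3 5aza, was analysed as FPKM (fragments scaled to transcript length and library size) in 1 table deposited by the authors. The submitters' processing notes name DESeq2 1.10.1, HTSeq 0.6.0 and STAR 2.5.1b, and list GRCh38 beside Rnor_6.0 as builds, without saying what each was used for. The sources used here do not give the program behind the FPKM values, the selection of RNA, strand marking or read totals. Libraries were assigned to groups by their titles, and columns were matched through the sample descriptions.

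Of 16726 rows, 16715 carried distinct identifiers. Of rows sharing 1 of the 11 repeated identifiers, the one with the higher mean was used. Symbols came from a table of gene names and positions from GENCODE 29 on GRCh38, looked up by Ensembl identifier (15440 of 15451 matched). Values were used as log2(FPKM + 0.1) without further scaling. The 12360 genes that reached 0.5 FPKM in 3 or more of the 6 libraries entered a two-sided limma 3.58.1 test (R 4.3.3; eBayes with trend), and p-values were adjusted over all 12360 by Benjamini-Hochberg. The same fit was tested on simulated data. Rose and fell stand for an adjusted p under 0.05. Intervals of fold changes are 95% intervals of single genes, not adjusted over genes. Per-library sums were compared by an exact permutation test. The titles number replicates, and nothing in the sources says that they came from separate cultures, so p-values measure the spread between these libraries, which may be technical. The S100 genes and all other lists were chosen with earlier results of these data known. Other genes named are, of each list, up to 3 rises and 3 falls with the largest changes and at least 1 FPKM in the higher group, a few partners and receptors set by name, and the nearest neighbours of S100P. Alternatives were other pseudocounts, filters and scalings, no variance trend, a replicate block and leaving out each library. Upstream sequences are from RefSeq on GRCh38.p14.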

Additional observations from a re-analysis of the deposited data

How the results depend on the processing

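Of the 8 S100 genes, 5 rose and 0 fell. The count of rises was 5 or 6 under the alternatives that kept all libraries and 4 to 5 when 1 library was left out; falls stayed at 0. S100A3 lost its call without 5aza replicate 3 (0.51, adjusted p = 0.0612; 0.44 to 0.68 over the libraries left out). S100A4 passed under 3 scalings (0.16 rescaled to a common sum, 0.16 under quantile normalization and 0.20 with the expression trend removed). S100A10 turned sign without control replicate 2 and without 5aza replicate 3 (-0.0122 to 0.0532 over the libraries left out), and S100P to 0.033 rescaled to a common sum. The summed level of the 8 genes was 14.2% higher as deposited and 20.7% higher with every library rescaled to a common sum. The difference of 299 FPKM was 433 FPKM under quantile normalization and 287 to 319 FPKM without 1 library; on the rescaled axis, whose unit is a larger total and not FPKM as deposited, it was 707. The cause of each change was not tested.

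With each library rescaled to a common sum, rises and falls over all genes numbered 2340 and 776, other S100 rises 3, partner rises 14, receptor falls 0, other EF-hand rises 13 and falls 3, flanking rises 2 and falls 1 on chromosome 1, and rises near S100P 2. Under quantile normalization, other S100 rises numbered 2, partner rises 10, EF-hand rises 11 and receptor falls 0. With the expression trend removed, they numbered 3, 12 and, for receptor falls, 0, with 3 flanking falls. With no filter, 3 other S100 genes and 2 flanking genes rose. With no variance trend, 1041 genes of all fell, with 3 EF-hand, 3 flanking and 0 receptor falls.

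Without 1 library, all genes gave 693 to 1084 rises and 940 to 1523 falls, flanking genes 2 to 6 falls, EF-hand genes 2 to 8 rises and 3 to 4 falls, receptors 2 to 4 rises and 0 to 1 falls, and partners 4 to 6 rises and 6 to 8 falls. These fits have fewer samples. Other signs that turned, none past the threshold as deposited, were those of ANXA11 (0.016, 0.0069 and 0.0050), MRFAP1 (0.012, 0.024 and 0.049) and MRFAP1L1 (0.073, 0.045 and 0.047) rescaled to a common sum, under quantile normalization and with the expression trend removed, and of AGER rescaled (0.033). Without 1 library, AGER ranged from -0.143 to 0.0996, ANXA1 from -0.0203 to 0.0231, EZR from -0.0161 to 0.0213, S100A5 from -0.462 to 0.0786 and MRFAP1L1 from -0.0423 to 0.0178.

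With the replicate number as a block, 5 S100 genes rose (S100A2 adjusted p = 0.00535, S100A3 0.0367), and 1259 genes rose and 1673 fell. Of the named genes, the block changed 2 calls: AHNAK passed as higher (0.31, adjusted p = 0.0114) and SLC27A3 did not pass (0.0552). Deviations of same-numbered libraries from their group means correlated at 0.05, 0.08 and 0.07, and those of different numbers at -0.09 to 0.02. Every library correlated best with its own number, and these values do not settle whether the numbers mark pairs. The block was kept as an alternative because the sources do not say that the numbers mark shared batches. The planned ratio of S100A8 to S100A9 was not run, as neither gene was analysed here. The sources used here give no read totals, so no floor is set for values near 0.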
